A study of Mus musculus with 20 samples.

Results

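Loss of Bcor alone was compared with wild type in megakaryocyte-erythroid progenitors (MEP), the bone marrow progenitors that give rise to platelets and red cells, sorted as Lin-/Sca1-/Kit+CD34- cells with low or no Fc gamma receptor II/III. The comparison took 5 of the 20 RNA-seq libraries of the series: 2 libraries labelled Bcor-/- and 3 labelled WT. Of the 24315 genes in the MEP table, 10505 had a mean of at least 1 FPKM (fragments per kilobase of transcript, corrected for library size) over these libraries and were tested. The other libraries hold MEP of Dnmt3a-/- and of Bcor-/-Dnmt3a-/- mice, and Lin-Sca1+Kit+ (LSK) stem and progenitor cells of the same 4 genotypes.

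The Bcor-/- mice carried loxP-flanked Bcor and the Mx1-Cre transgene, whose interferon-inducible promoter was switched on with pIpC. This deletes the gene in many blood cells at once, not in MEP alone. The WT mice had untargeted genes. The study counts blood cells of WT controls before and after pIpC. Whether the WT mice sequenced here received it or carried Cre was not given in the sources used here. The age at which the RNA was taken was not given either. The label of Bcor-/- replicate 1 names 2 mice, and each other label names 1 mouse. A figure legend of the study gives the number of mice per genotype for LSK. It does not say how mice were pooled, so the p-values measure the spread between these 5 libraries.

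BCOR is a corepressor that binds BCL6 and is a core part of PRC1.1, a Polycomb complex that places ubiquitin on histone H2A at unmethylated CpG-rich promoters. KDM2B brings PRC1.1 to such DNA, PCGF1 is its defining ring-finger subunit, and RING1 or RNF2 is its ubiquitin ligase. Hox genes are classical Polycomb targets, and they are active in stem cells and fall silent as blood progenitors mature.

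The transcript level of Bcor did not show the deletion. Bcor was at 26.9, 21.3 and 22.4 FPKM in WT replicates 1, 2 and 3 and at 19.5 and 22.4 FPKM in Bcor-/- replicates 1 and 2, so the groups overlapped (log2 fold change -0.15 ± 0.13 (SE), adjusted p = 0.697). The study's deletion takes out internal exons, and it describes the remaining mRNA as unstable, but a fall was not seen in these MEP libraries. In LSK, Bcor was at 32.4, 31.1 and 29.6 FPKM in WT and at 22.4 and 23.2 FPKM in the libraries labelled Bcor-/- (log2 fold change -0.43 ± 0.09, adjusted p = 0.0225). A gene-level FPKM does not show which exons the reads came from, and why the MEP level did not fall was not tested. The study checked the deletion in other cells, by RT-PCR in LSK and by western blot in lineage-negative marrow, which is not repeated here. Bcor-/- MEP here means the libraries labelled so, and every direction rests on those labels. Dnmt3a, which was not targeted in these mice, was at 5.49 to 6.64 FPKM in WT and at 7.56 and 7.65 FPKM in Bcor-/- MEP (adjusted p = 0.473). Xist, the RNA of the inactive X chromosome, was at 0.0649 FPKM or less in all 5 libraries. The Y-linked Ddx3y was at 14.8 FPKM or more, so all 5 read as male and the groups did not differ in sex. Bcor is X-linked, and the study gives the name Bcor-/- to males with a floxed Bcor on their only X chromosome as well as to homozygous mice.

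A gene was called where its unadjusted p was under 0.05 and its fold change on the log2(FPKM + 1) scale was above 1.5. This rule called 458 of 10505 genes, or 4.36%: 224 higher (2.13%) and 234 lower (2.23%) in Bcor-/- MEP. The level filter favoured some calls: 35 of the genes called higher had a WT mean under 1 FPKM and 44 of those called lower a Bcor-/- mean under 1 FPKM, so they were tested only through the group where they are high. Of the 458, 38 genes (0.362%) also had an adjusted p under 0.05, 14 of them higher and 24 lower, so most of the calls hold only before adjustment, and the limma adjusted p is given with most of the called genes described. Both Bcor-/- libraries lay above every WT library in 14.9% of the genes tested and below every WT library in 16.2%. The median log2 fold change of all genes tested was -0.0061. Without Bcor-/- replicate 1 the number with an adjusted p under 0.05 was 1, without Bcor-/- replicate 2 it was 5, without WT replicate 1 it was 3, without WT replicate 2 it was 71 and without the level filter it was 3. The libraries are similar as a whole: Pearson's r across genes on the log2 scale was 0.968 to 0.98 between WT libraries, 0.984 between the Bcor-/- libraries and 0.966 to 0.977 between the groups.

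**Figure D1:**
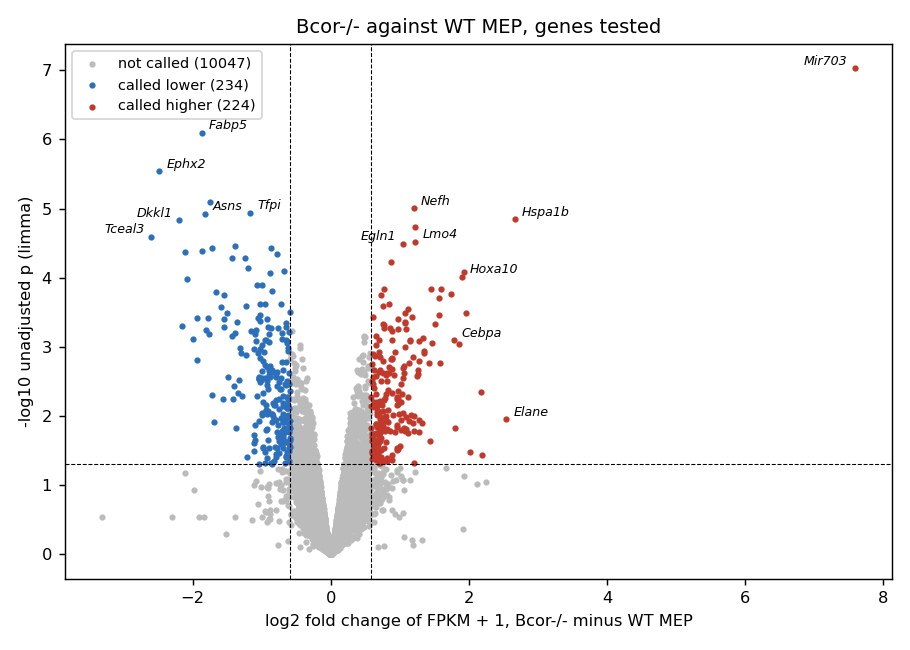
Each point is 1 of the 10505 genes tested: the x axis is the log2 fold change of FPKM + 1, Bcor-/- minus WT MEP, and the y axis is -log10 of the unadjusted limma p. Dashed lines mark the thresholds of the call; 224 genes lie beyond them as called higher and 234 as called lower, and Mir703, far to the right, is a microRNA gene listed at 0 in all 3 WT libraries.

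Of the 11 PRC1.1 genes 1 was called, beside 4.36% of all genes. Bcorl1, the paralog of Bcor that can take its place in PRC1.1, was at 2.98, 3.99 and 3.98 FPKM in WT and at 9.20 and 8.35 FPKM in Bcor-/- MEP. Both Bcor-/- libraries lay above every WT library (log2 fold change 1.08 ± 0.16, adjusted p = 0.067). The log2 fold changes of the others, none called, were small: Kdm2b at 0.30 (adjusted p = 0.316), Yaf2 at 0.30 (adjusted p = 0.462), Rybp at 0.19, Pcgf1 at 0.12, Bcl6 at 0.09, Rnf2 at 0.08, Usp7 at 0.03, Skp1a at -0.04 and Ring1 at -0.10. Bcorl1, Kdm2b and Yaf2, 3 of the 11, lay above every WT library in both Bcor-/- libraries, as did 14.9% of all genes. Of 25 further PRC1 and PRC2 genes 1 was called, 4.0% and so near the share of all genes. It was Phf19, a PRC2 accessory subunit, which fell from 4.63 to 5.77 FPKM in WT to 2.134 and 1.898 FPKM (log2 fold change -1.05 ± 0.16, adjusted p = 0.0676). None of 7 tested DNA methylation genes was called, and none had an unadjusted limma p under 0.05, beside 1217 of all 10505 genes.

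Of the tested genes of the HoxA cluster, Hoxa5, Hoxa7, Hoxa9 and Hoxa10 were called higher and Hoxa4 was not. The promoters of these 4 called genes are shown. Whether PRC1.1 at these promoters has a part in their higher level was not tested. The windows run from 250 bases before to 50 bases after the start of each gene on the minus strand of chromosome 6 (RefSeq, GRCm38.p6), 5′ to 3′, with CpG dinucleotides in capitals. They differ in CpG number: 29 in Hoxa5, 9 in Hoxa7, 4 in Hoxa9, and 12 and 21 in the windows listed for Hoxa10, against a median of 21 CpG (quartiles 14 and 29) over the 8511 tested genes with a window. These counts are a description of the windows, and no CpG comparison over the called genes was made.
Hoxa5 (chr6:52204538-52204837): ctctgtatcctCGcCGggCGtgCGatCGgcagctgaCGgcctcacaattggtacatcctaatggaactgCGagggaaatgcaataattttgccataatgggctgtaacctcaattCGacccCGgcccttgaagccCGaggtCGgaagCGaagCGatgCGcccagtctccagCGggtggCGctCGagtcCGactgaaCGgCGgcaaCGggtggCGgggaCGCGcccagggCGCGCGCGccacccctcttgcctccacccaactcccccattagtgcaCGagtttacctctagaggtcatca
Hoxa7 (chr6:52218524-52218823): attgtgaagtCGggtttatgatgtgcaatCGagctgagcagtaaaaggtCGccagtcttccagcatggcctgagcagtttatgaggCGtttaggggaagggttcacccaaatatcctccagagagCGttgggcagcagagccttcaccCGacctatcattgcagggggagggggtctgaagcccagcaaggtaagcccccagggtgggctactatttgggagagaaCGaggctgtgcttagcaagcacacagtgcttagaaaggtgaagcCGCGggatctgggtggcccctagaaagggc
Hoxa9 (chr6:52227321-52227620): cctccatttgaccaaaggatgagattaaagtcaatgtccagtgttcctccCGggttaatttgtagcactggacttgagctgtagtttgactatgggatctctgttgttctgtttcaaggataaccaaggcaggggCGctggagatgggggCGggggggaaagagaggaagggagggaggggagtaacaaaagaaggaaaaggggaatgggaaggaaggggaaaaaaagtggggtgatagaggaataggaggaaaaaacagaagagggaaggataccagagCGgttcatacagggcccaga
Hoxa10 (outer start site, chr6:52240805-52241104): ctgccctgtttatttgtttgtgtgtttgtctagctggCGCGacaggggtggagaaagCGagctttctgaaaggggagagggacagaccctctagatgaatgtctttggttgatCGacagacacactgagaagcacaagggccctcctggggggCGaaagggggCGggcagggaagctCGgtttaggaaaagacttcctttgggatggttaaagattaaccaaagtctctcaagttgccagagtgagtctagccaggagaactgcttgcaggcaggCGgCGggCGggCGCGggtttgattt
Hoxa10 (inner start site, chr6:52234890-52235189): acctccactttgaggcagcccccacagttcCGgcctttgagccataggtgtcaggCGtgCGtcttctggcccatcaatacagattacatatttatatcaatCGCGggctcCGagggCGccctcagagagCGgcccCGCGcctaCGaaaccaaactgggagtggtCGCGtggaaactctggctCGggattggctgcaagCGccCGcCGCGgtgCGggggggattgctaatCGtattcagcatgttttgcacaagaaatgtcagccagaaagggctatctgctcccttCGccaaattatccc

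Hoxa10, a homeobox factor of stem and myeloid cells, was at 1.66, 0.719 and 1.33 FPKM in WT and at 6.51 and 7.97 FPKM in Bcor-/- MEP. The groups did not overlap, and the log2 fold change was 1.9 ± 0.23 (adjusted p = 0.0378). Hoxa9, the cluster member best known from acute leukemia, went from 3.38, 3.17 and 6.38 FPKM to 12.2 and 14.2 FPKM (log2 fold change 1.47 ± 0.26, adjusted p = 0.0816). It was the highest of the tested Hox genes in both groups by FPKM. Hoxa7, its neighbour, was at 0.811, 0.804 and 2.14 FPKM in WT and at 4.93 and 4.75 FPKM in Bcor-/- MEP (log2 fold change 1.43 ± 0.28, adjusted p = 0.112). Hoxa5 was at 1.09, 0.587 and 0.946 FPKM in WT and at 3.12 and 4.35 FPKM in Bcor-/- MEP (log2 fold change 1.34 ± 0.23, adjusted p = 0.0797). Of these 4, Hoxa10 alone had an adjusted p under 0.05, and Hoxa5, with a WT mean under 1 FPKM, was tested only through its Bcor-/- level. They were the 4 genes called among the 10 tested of 37 listed Hox genes and cofactors, beside 2.13% of all genes called higher. The rest were under the level filter.

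The other tested Hox genes, Hoxa4 (log2 fold change 0.37, adjusted p = 0.698) and Hoxb4 (0.57, adjusted p = 0.46), were not called. Neither were the Hox cofactors Meis1 (0.62, adjusted p = 0.69), Pbx2 (-0.01) and Pbx3 (-0.39). Mira, a long noncoding RNA of the HoxA cluster chosen here after its values were seen, was at 5.61, 2.06 and 4.24 FPKM in WT and 11.7 and 14.7 FPKM in Bcor-/- MEP (log2 fold change 1.58, adjusted p = 0.113). Transcripts of this dense cluster can overlap and whether strand was used in the counting is not given in the sources used here, so reads may be shared between neighbours. The 4 Hoxa genes stayed called with any one library left out. Without the level filter 7 genes of the list were called, and at a mean of at least 5 FPKM 1, Hoxa9, was called.

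**Figure D2:**
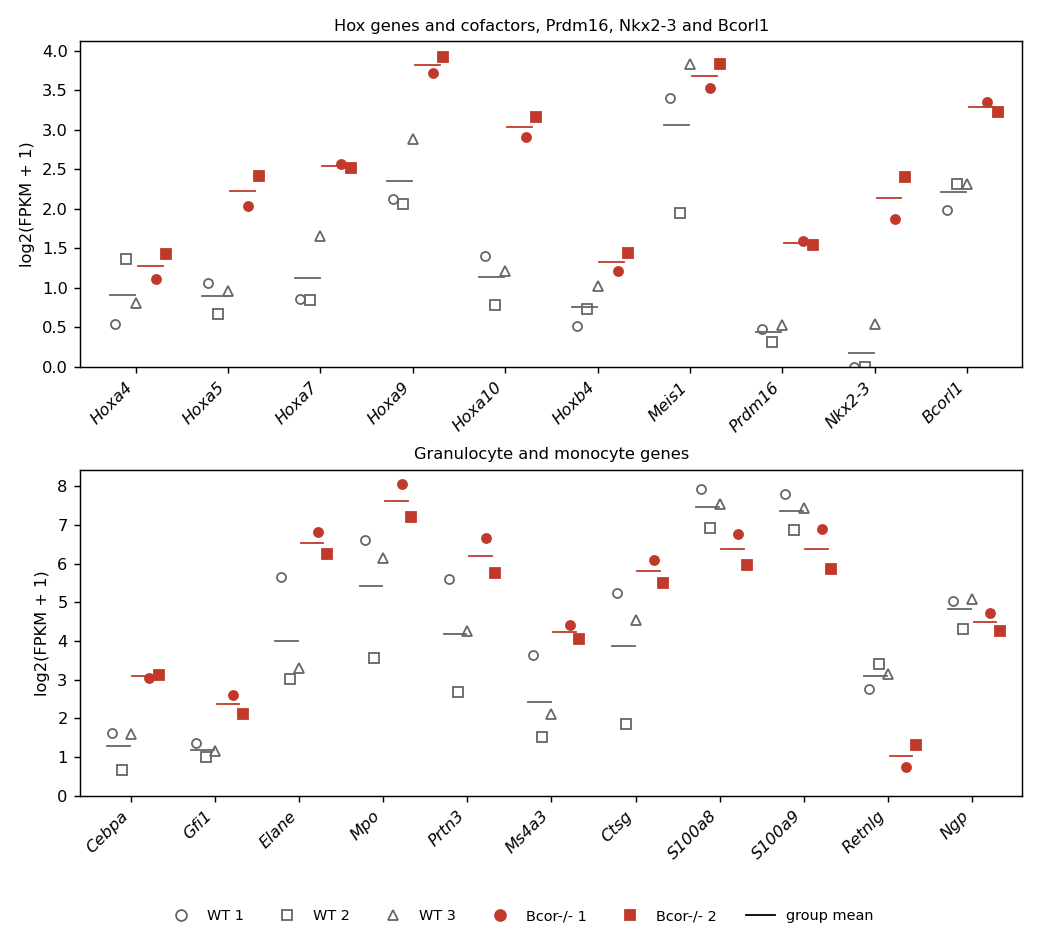
Each marker is the log2(FPKM + 1) value of a gene in 1 MEP library; open grey markers are the 3 WT libraries, filled red markers the 2 Bcor-/- libraries, and lines the group means. Hoxa10 sits at 0.719 to 1.66 FPKM in WT and at 6.51 and 7.97 FPKM in Bcor-/- MEP, while Meis1 overlaps between the groups.

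Prdm16, a stem cell maintenance factor, was at 0.399, 0.242 and 0.438 FPKM in WT and at 2.02 and 1.91 FPKM in Bcor-/- MEP (log2 fold change 1.13 ± 0.23, adjusted p = 0.113). Nkx2-3, another homeobox gene, was listed at 0 in WT replicates 1 and 2, at 0.453 FPKM in WT replicate 3 and at 2.67 and 4.29 FPKM in Bcor-/- MEP (log2 fold change 1.96 ± 0.29, adjusted p = 0.067). Both genes passed the level filter only through the Bcor-/- libraries, which favoured their being called higher. Of 39 stem and multipotent progenitor genes 30 were tested, and 6 of these were called higher and none lower, beside 2.13% and 2.23% of all genes. The 6 were Prdm16, Socs2, Esam, Hmga2, Ifitm1 and Slc22a3, with log2 fold changes of 0.63 to 1.44. Prdm16, Socs2 and Hmga2 had a WT mean under 1 FPKM and were tested only through their Bcor-/- level. Without the level filter 5 of 39 were called, and at a mean of at least 5 FPKM 2 of 17. This list also rests on single libraries: 0 members were called without Bcor-/- replicate 1, 2 without Bcor-/- replicate 2, and 16 without WT replicate 3.

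Beside these genes, the stem list's summed level was 438.2, 315.3 and 671.2 FPKM in WT and 648.8 and 608.9 FPKM in Bcor-/- MEP, so WT replicate 3 was the highest of the 5. Cd34, a marker that the MEP gate selects against, was at 23.9, 5.43 and 60.6 FPKM in WT and at 56.9 and 30.0 FPKM in Bcor-/- MEP. Both Bcor-/- libraries lay between the lowest and the highest WT library. Kit, which the gate selects for, was at 77.0 to 83.5 FPKM in WT and at 67.6 and 79.0 FPKM in Bcor-/- MEP, and Ly6a, which encodes Sca1, was at 1.80 FPKM or less. In bulk libraries a larger number of cells that express a gene and more RNA per cell cannot be told apart.

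Granulocyte and monocyte genes moved in both directions. Of 34 tested, 6 were called higher and 2 lower, beside 2.13% and 2.23% of all genes, with a median log2 fold change of 0.34. With a library left out the median ran from 0.086 (Bcor-/- replicate 1) to 0.54 (Bcor-/- replicate 2). Without Bcor-/- replicate 1 the list had 2 called higher and 6 lower, without Bcor-/- replicate 2 it had 9 higher and 0 lower, without WT replicate 1 11 higher and 1 lower, and without WT replicate 2 7 higher and 4 lower. Cebpa, the master factor of granulocyte progenitors, was at 2.09, 0.580 and 2.02 FPKM in WT and at 7.24 and 7.73 FPKM in Bcor-/- MEP (log2 fold change 1.79 ± 0.31, adjusted p = 0.0797). Gfi1, a repressor needed for neutrophil development, went from 0.981 to 1.58 FPKM in WT to 5.10 and 3.35 FPKM (log2 fold change 1.19 ± 0.23, adjusted p = 0.103).

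The other 4 members called higher were Elane, Mpo, Prtn3 and Ms4a3, none with an adjusted p under 0.05. Elane, neutrophil elastase, was at 49.4, 7.08 and 8.86 FPKM in WT and at 112.5 and 74.6 FPKM in Bcor-/- MEP (log2 fold change 2.54 ± 0.74, adjusted p = 0.254). Mpo, myeloperoxidase, was at 96.1, 10.8 and 69.2 FPKM in WT and at 263.3 and 145.0 FPKM in Bcor-/- MEP (log2 fold change 2.19 ± 0.84, adjusted p = 0.392). Prtn3 (log2 fold change 2.02, adjusted p = 0.382) and Ms4a3 (1.80, adjusted p = 0.284) were called higher as well, while Ctsg, the cathepsin of the primary granules, was not (1.92, adjusted p = 0.481). WT replicate 2 was the lowest library for each of these 5 genes. Leaving out Bcor-/- replicate 1 ended the calls of Elane, Mpo, Prtn3 and Ms4a3, and leaving out WT replicate 3 ended that of Prtn3, while Cebpa and Gfi1 stayed called with any one library left out.

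Some genes of mature neutrophils were called lower. S100a8, a calcium-binding protein abundant in neutrophils, was at 243.5, 120.3 and 186.4 FPKM in WT and at 108.4 and 61.7 FPKM in Bcor-/- MEP (log2 fold change -1.10 ± 0.33, adjusted p = 0.271). Its partner S100a9 was called lower too, although WT replicate 2 at 116.2 FPKM lay below Bcor-/- replicate 1 at 118.3 FPKM (log2 fold change -0.98, adjusted p = 0.361). With a library left out the log2 fold change ran from -1.498 to -0.696 for S100a8 and from -1.501 to -0.467 for S100a9. Retnlg, a resistin-like gene of neutrophils that is not on the list, fell from 5.70, 9.53 and 7.81 FPKM to 0.662 and 1.47 FPKM (log2 fold change -2.08 ± 0.26, adjusted p = 0.0391). Ngp, Ltf, Camp and Lcn2, genes of the later granules, had log2 fold changes of -0.51 to -0.25 and were not called.

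Red cell genes were split. Of 31 tested globin, membrane and late erythroid genes, 3 were called lower and 2 higher, beside 4.36% of all genes called. Slc4a1, the anion exchanger band 3, was at 11.7, 32.7 and 13.4 FPKM in WT and at 7.78 and 2.72 FPKM in Bcor-/- MEP (log2 fold change -1.68 ± 0.50, adjusted p = 0.263). Hbb-b1, an adult beta globin, was at 97.4, 264.0 and 108.0 FPKM in WT and at 66.3 and 43.3 FPKM in Bcor-/- MEP (log2 fold change -1.38 ± 0.42, adjusted p = 0.284). Hbb-b1 and Hbb-b2 are near-identical copies whose reads the counting may split, and Hbb-b2 was not called (-0.90, adjusted p = 0.52).

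The 2 red cell genes called higher encode proteins that shape the membrane skeleton. Tmod1, which caps the actin filaments, was at 1.14, 1.753 and 1.70 FPKM in WT and at 8.21 and 5.05 FPKM in Bcor-/- MEP (log2 fold change 1.57 ± 0.24, adjusted p = 0.0676). Dmtn, dematin, was at 8.23, 15.4 and 8.70 FPKM in WT and at 19.3 and 17.9 FPKM in Bcor-/- MEP (log2 fold change 0.78 ± 0.25, adjusted p = 0.291). Among 25 heme and iron genes 1 was called (4.0%, near the share of all genes), Alas2, the erythroid enzyme that starts heme synthesis: 4.45, 15.2 and 6.90 FPKM in WT against 1.91 and 1.49 FPKM in Bcor-/- MEP (log2 fold change -1.72 ± 0.42, adjusted p = 0.184). For Slc4a1, Hbb-b1 and Alas2 alike WT replicate 2 was the highest library, and without it the late erythroid list had 2 members called lower and 4 higher. Without Bcor-/- replicate 2 the list had 2 higher and 0 lower, and with all 10 MEP libraries in the fit it had 0 in either direction, so the direction of the late erythroid calls is not stable.

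The main regulators of the erythroid lineage were not called. Gata1, the factor that drives erythroid and megakaryocyte genes, was at 170.2 to 224.7 FPKM in WT and at 184.8 and 195.5 FPKM in Bcor-/- MEP (log2 fold change 0.0033 ± 0.13, adjusted p = 0.998). Klf1 had a log2 fold change of 0.27 (adjusted p = 0.503), Tal1 one of 0.21 and Epor, the erythropoietin receptor, one of -0.02. Tfrc, the transferrin receptor, was at 204.1 to 210.5 FPKM in WT and at 152.8 and 152.3 FPKM in Bcor-/- MEP, below every WT library but under the fold threshold (-0.44 ± 0.08, adjusted p = 0.0855). Of 26 erythroid factors and receptors 3 were called (11.5%, against 4.36% of all genes), all higher. Without Bcor-/- replicate 1 it was 1, and with all 10 MEP libraries in the fit 1. At a mean of at least 5 FPKM none of 22 was called. The 3 were Socs3, Socs2 and Cish, which dampen cytokine receptor signalling and are induced through STAT5 or STAT3. Socs3 was at 2.91, 1.63 and 3.33 FPKM in WT and at 6.93 and 9.22 FPKM in Bcor-/- MEP (log2 fold change 1.35 ± 0.25, adjusted p = 0.0967). Socs2 went from 0.433 to 0.616 FPKM to 3.33 and 1.62 FPKM (1.12 ± 0.28, adjusted p = 0.187), tested only through its Bcor-/- level, and Cish from 1.37 to 3.73 FPKM to 5.71 and 4.76 FPKM (0.94 ± 0.30, adjusted p = 0.291).

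Of 36 tested megakaryocyte and platelet genes 1 was called, 2.78% against 4.36% of all genes. Gp5, a subunit of the platelet von Willebrand factor receptor, was at 12, 10.9 and 16.5 FPKM in WT and at 23.6 and 22.8 FPKM in Bcor-/- MEP (log2 fold change 0.80 ± 0.17, adjusted p = 0.131). Gp5, Fli1, Runx1, Zfpm1 and Fermt3, 5 of the 36, lay above every WT library in both Bcor-/- libraries, as did 14.9% of all genes, and only Gp5 of them was called. Pf4 and Itga2b overlapped between the groups. Pf4, platelet factor 4, was at 199.1, 56.5 and 242.9 FPKM in WT and at 72.5 and 121.7 FPKM in Bcor-/- MEP (log2 fold change -0.57, adjusted p = 0.758). Itga2b, the platelet integrin CD41, was at 46.6, 12.9 and 61.5 FPKM in WT and at 42.2 and 58.3 FPKM in Bcor-/- MEP (0.55, adjusted p = 0.766). Pf4 and Itga2b were lowest in WT replicate 2, and without that library 1 megakaryocyte gene was called higher and 6 lower. Without WT replicate 3 it was 6 higher and 0 lower.

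**Figure D3:**
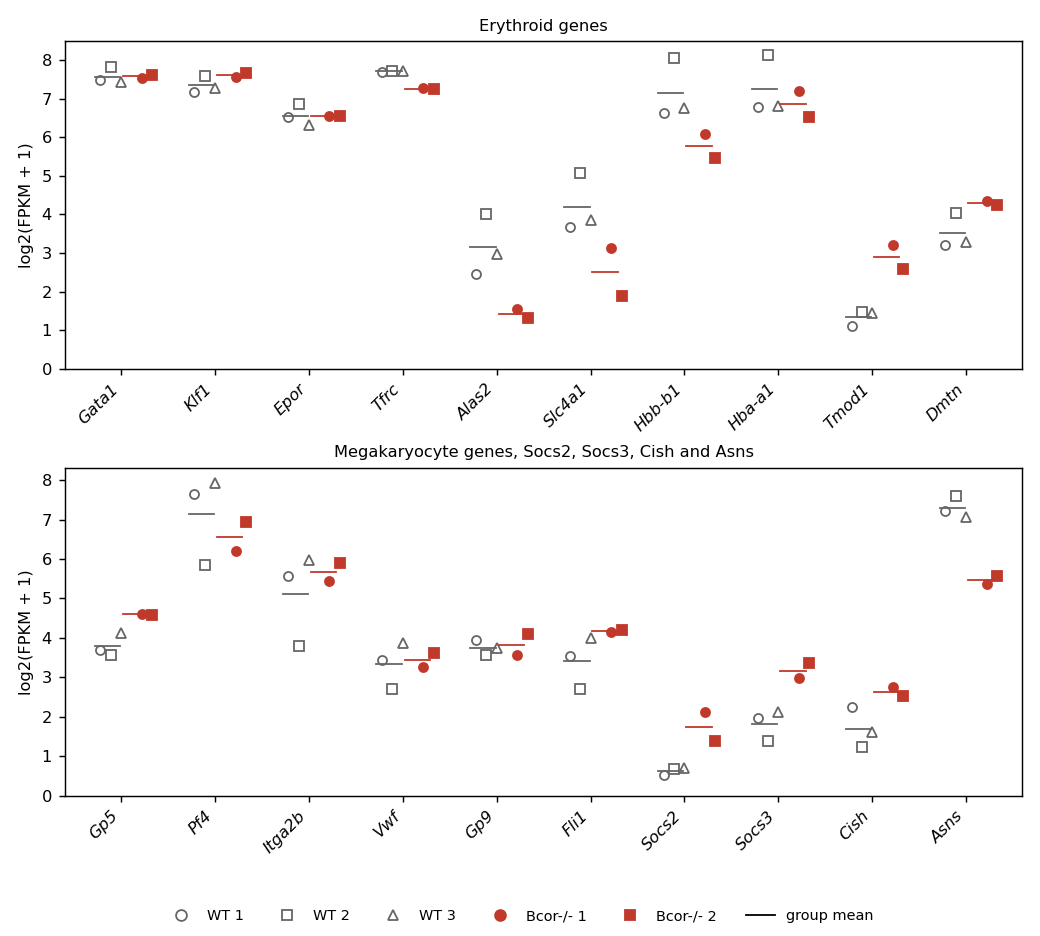
Each marker is the log2(FPKM + 1) value of a gene in 1 MEP library; open grey markers are WT, filled red markers Bcor-/-, and lines the group means. WT replicate 2 (square) is the highest library for Alas2, Slc4a1 and Hbb-b1 and the lowest for Pf4 and Itga2b, while Gata1 overlaps between the groups.

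Some stress and immediate early genes were called higher. Hspa1b, an inducible HSP70, was at 0.156, 0.217 and 0.666 FPKM in WT and at 8.40 and 6.54 FPKM in Bcor-/- MEP (log2 fold change 2.66 ± 0.24, adjusted p = 0.0174). Its near-identical copy Hspa1a was listed at 0 in WT replicates 1 and 2 and reached 3.18 and 2.73 FPKM in Bcor-/- MEP (1.93 ± 0.23, adjusted p = 0.0345), and reads of the pair may be split between them. Hsph1, an HSP70 partner, rose from 55.7, 52.7 and 65.9 FPKM to 141.9 and 129.8 FPKM (1.22 ± 0.12, adjusted p = 0.0196). These 3 were called higher and Asns lower among 18 tested heat shock and stress genes, beside 4.36% of all genes. Hspa1a and Hspa1b were tested only through their Bcor-/- level, and at a mean of at least 5 FPKM Hsph1 and Asns were the members called. Heat shock and immediate early RNAs also respond to the handling of cells, and whether handling differed between the groups was not tested.

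Of 24 immediate early genes 5 were called higher and none lower, beside 2.13% of all genes called higher: Klf2, Fos, Myc, Rhob and Dusp1. Klf2, a quiescence factor, was at 4.77, 3.83 and 7.05 FPKM in WT and at 17.2 and 16.7 FPKM in Bcor-/- MEP (log2 fold change 1.56 ± 0.22, adjusted p = 0.0527). Myc, the growth regulator, was at 67.6, 70.3 and 95.8 FPKM in WT and at 143.7 and 141.7 FPKM in Bcor-/- MEP (0.88 ± 0.15, adjusted p = 0.0797). Fos was at 320.1, 152.9 and 336.6 FPKM in WT and at 512.8 and 674.0 FPKM in Bcor-/- MEP (1.20 ± 0.34, adjusted p = 0.244). Egr1, Nr4a1 and Atf3, other members of the list, had log2 fold changes of 0.01, -0.36 and -0.38 and were not called. Without WT replicate 2, which held the lowest Fos value, 3 members were called higher and 2 lower. Without Bcor-/- replicate 2 it was 2 higher and 1 lower, and with all 10 MEP libraries in the fit 1 was called.

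Among the well expressed genes with the smallest p that rose, Nefh, the heavy neurofilament chain, was at 14.3, 12.9 and 14.8 FPKM in WT and at 35.0 and 31.9 FPKM in Bcor-/- MEP (log2 fold change 1.20 ± 0.10, adjusted p = 0.0174). Egln1, the oxygen-sensing prolyl hydroxylase that marks HIF alpha subunits for destruction, was at 9.71, 11.2 and 10.7 FPKM in WT and at 23.8 and 21.9 FPKM in Bcor-/- MEP (1.05 ± 0.11, adjusted p = 0.0242). Lmo4, a LIM-only transcriptional adaptor, was at 13.4, 11.7 and 15.2 FPKM in WT and at 33.6 and 31.5 FPKM in Bcor-/- MEP (1.22 ± 0.13, adjusted p = 0.0242). In each of these 3 genes both Bcor-/- libraries lay above every WT library, and the spread within each group was small. Their choice by small p favoured both. Smo, the signal transducer of the Hedgehog pathway (0.88 ± 0.10, adjusted p = 0.0286), Ctbp2, a corepressor (1.60 ± 0.21, adjusted p = 0.0468), Scd2, a fatty acid desaturase (1.45 ± 0.19, adjusted p = 0.0468), and Srebf1, a master factor of lipid synthesis (0.77 ± 0.10, adjusted p = 0.0468), rose too. Podxl, a sialomucin of progenitor and endothelial cells, had a log2 fold change of 2.17 ± 0.52 (adjusted p = 0.175) that rested mostly on Bcor-/- replicate 1, with 12.4 FPKM against 2.60 FPKM in replicate 2 and 0.305 to 0.908 FPKM in WT. Fgf3, a growth factor, went from 1.12 to 3.45 FPKM in WT to 10.3 and 12.5 FPKM (1.85, adjusted p = 0.0827).

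Genes with an adjusted p under 0.05 were more often lower (24) than higher (14). Fabp5, a fatty acid binding protein, had the smallest p of the genes that fell: 32.1, 33.4 and 37.5 FPKM in WT against 9.20 and 8.20 FPKM in Bcor-/- MEP (log2 fold change -1.87 ± 0.11, adjusted p = 0.00425). Ephx2, soluble epoxide hydrolase, fell from 12.2, 14.6 and 10.2 FPKM to 1.52 and 1.22 FPKM (-2.49 ± 0.18, adjusted p = 0.0102). Asns, which makes asparagine, was among the more abundant transcripts, with 148.9, 191.7 and 132.8 FPKM in WT and 40.6 and 46.9 FPKM in Bcor-/- MEP (-1.82 ± 0.16, adjusted p = 0.0174). No WT library came near the Bcor-/- range in these 3 genes, which their choice by small p or large change favoured.

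Dkkl1, a secreted protein related to the Dickkopf Wnt inhibitors, fell from 29.4, 44.7 and 27.8 FPKM to 6.50 and 6.48 FPKM (log2 fold change -2.19 ± 0.20, adjusted p = 0.0174). Tceal3, a small elongation factor-like protein, had the largest fall by log2 fold change among the named genes, from 8.32, 10.9 and 6.24 FPKM to 0.305 and 0.814 FPKM (-2.60 ± 0.26, adjusted p = 0.0242). Tfpi, the inhibitor of tissue factor, fell from 16.9, 17.8 and 17.0 FPKM to 7.39 and 6.92 FPKM (-1.16 ± 0.10, adjusted p = 0.0174). Dapk2 and Mylk3, a death-associated and a myosin light chain kinase, had log2 fold changes of -2.12 ± 0.23 and -1.86 ± 0.20 (both adjusted p = 0.025). Samsn1, an adaptor of hematopoietic cells (-0.87 ± 0.09, adjusted p = 0.0242), Rbm3, a cold-inducible RNA-binding protein (-0.78 ± 0.08, adjusted p = 0.025), and LOC100504703, an uncharacterised locus (-1.24 ± 0.14, adjusted p = 0.0262), were the other well expressed genes with the smallest p that fell.

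Acp5, a tartrate-resistant acid phosphatase, was at 15.2, 29.5 and 11.8 FPKM in WT and at 3.17 and 4.13 FPKM in Bcor-/- MEP (log2 fold change -1.997 ± 0.35, adjusted p = 0.0797). Redrum, a long noncoding RNA of erythroid cells, went from 3.01, 7.66 and 6.49 FPKM to 0.280 and 0.622 FPKM (-2.15 ± 0.35, adjusted p = 0.0731). Agpat4, a lysophospholipid acyltransferase, fell by 1.93 and Tinagl1, a matrix protein, by 1.94 on the log2 scale (adjusted p = 0.0676 and 0.106). The last gene named by size of change, 2900008C10Rik, a locus of unassigned function, rose from 0.521, 0.482 and 0.124 FPKM to 3.63 and 3.45 FPKM (1.74 ± 0.24, adjusted p = 0.0497). 2900008C10Rik and Podxl, with a WT mean under 1 FPKM, were tested only through their Bcor-/- level, and Tceal3, Redrum and Tinagl1, with a Bcor-/- mean under 1 FPKM, only through their WT level.

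Immune genes that could mark other cells were checked in full lists. None of 14 tested B-cell markers was called, beside 4.36% of all genes. None had an unadjusted limma p under 0.05, beside 1217 of all 10505 genes. All 14 had a log2 fold change below 0 (median -0.83), while 48.4% of all genes had one above 0. The median of these markers was -1.51 without Bcor-/- replicate 1 and -0.044 without Bcor-/- replicate 2. Their summed level was 172.6, 321.6 and 121.4 FPKM in WT and 185.9 and 49.2 FPKM in Bcor-/- MEP, so Bcor-/- replicate 1 lay within the WT range. Without that library 7 of them were called lower, and without WT replicate 3 it was 4. Ms4a1, which encodes CD20, was at 0.0778 FPKM or less in all 5. Of 9 MHC class II genes 2 were called lower, beside 2.23% of all genes, H2-Aa, from 88.7 to 146.3 FPKM in WT to 68.9 and 58.8 FPKM (-0.71, adjusted p = 0.291), and H2-Eb1 (-0.62, adjusted p = 0.196). None of the 9 was called without WT replicate 1, without Bcor-/- replicate 2 or with all 10 MEP libraries in the fit, and 4 were called lower without WT replicate 2. Of 12 T-cell and NK-cell markers 1 was called lower, beside 2.23% of all genes, the granzyme Gzma (-0.87, adjusted p = 0.428). Without WT replicate 1 none was called, and without Bcor-/- replicate 2 it was 2 higher and 0 lower. None of the 6 tested macrophage markers and none of the 2 eosinophil markers was called, beside 4.36% of all genes. With 8 MEP libraries in the fit 1 eosinophil marker was called higher. The median log2 fold change of these 2 was -0.069 without Bcor-/- replicate 1 and 0.78 without Bcor-/- replicate 2. The macrophage complement genes C1qa, C1qb and C1qc were at 0.966 FPKM or less in every library.

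Of 12 basophil and mast-cell markers 2 rose and 1 fell, beside 4.36% of all genes called. Hdc, histidine decarboxylase, was at 1.48, 0.514 and 1.12 FPKM in WT and at 4.33 and 3.33 FPKM in Bcor-/- MEP (log2 fold change 1.27, adjusted p = 0.126). Fcer1g, the signalling chain of the IgE receptor, was at 14.1 to 20.7 FPKM in WT and at 29.1 and 24.3 FPKM in Bcor-/- MEP (0.66, adjusted p = 0.214). Il1rl1, the interleukin-33 receptor, fell from 20.6, 22.4 and 25.4 FPKM to 9.28 and 11.6 FPKM (-1.06 ± 0.14, adjusted p = 0.0448). The list had 1 higher and 1 lower without WT replicate 1, 2 higher and 3 lower without WT replicate 2, 4 higher and 1 lower without WT replicate 3, and 1 higher and 2 lower without Bcor-/- replicate 1. The summed basophil and mast-cell level was 76.1 to 162.5 FPKM in WT and 129.7 and 130.2 FPKM in Bcor-/- MEP. The part of other cells in these results was not tested.

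Genes of the cell cycle and of cell death were read against the 4.36% of all genes called. None of 35 DNA replication and mitosis genes and none of 21 CDK inhibitors and cyclins was called or had an unadjusted limma p under 0.05. Of the CDK inhibitors and cyclins, 2 were called higher without WT replicate 3. Of 25 caspases and death receptors none was called and 2 had an unadjusted limma p under 0.05, as did 1217 of all 10505 genes tested. In this list 1 was called higher without WT replicate 2, and 1 without WT replicate 3. Of 18 tested Bcl2 family genes 1 was called lower, Bcl2l15, a family member of low level (3.78, 7.48 and 2.39 FPKM in WT against 1.60 and 1.25 FPKM, adjusted p = 0.325). It was 1 of 18, or 5.56%, and none without Bcor-/- replicate 2. Bcl2, the survival factor, was at 5.69, 2.81 and 8.40 FPKM in WT and at 10.5 and 8.70 FPKM in Bcor-/- MEP, which did not pass (0.76, adjusted p = 0.469). Of 22 genes of the p53 list 2 were called (9.09%). Ddit4, a stress-induced brake on mTORC1, rose from 4.92 to 7.17 FPKM to 13.4 and 15.8 FPKM (1.09 ± 0.18, adjusted p = 0.0731), and Plk2, a polo-like kinase, fell from 2.503 to 4.23 FPKM to 0.656 and 0.973 FPKM (-1.23 ± 0.23, adjusted p = 0.101), tested only through its WT level.

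Of 32 interferon-stimulated genes 1 was called higher and 2 lower (9.38%, against 4.36% of all genes). The list had 0 higher and 1 lower without Bcor-/- replicate 1, 0 higher and 2 lower without Bcor-/- replicate 2, 1 of each without WT replicate 1, and 2 higher and 4 lower without WT replicate 3. The pIpC used to induce the deletion also induces interferon. Irf7, a master factor of the interferon response, was at 11.2, 12.7 and 7.12 FPKM in WT and at 4.67 and 5.91 FPKM in Bcor-/- MEP (-0.82, adjusted p = 0.253). Oas1a, an antiviral sensor, fell by 0.64 on the log2 scale (adjusted p = 0.188), and Ifitm1, which is also on the stem list, rose (1.44, adjusted p = 0.33). The median log2 fold change of the list was 0.02.

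**Figure D4:**
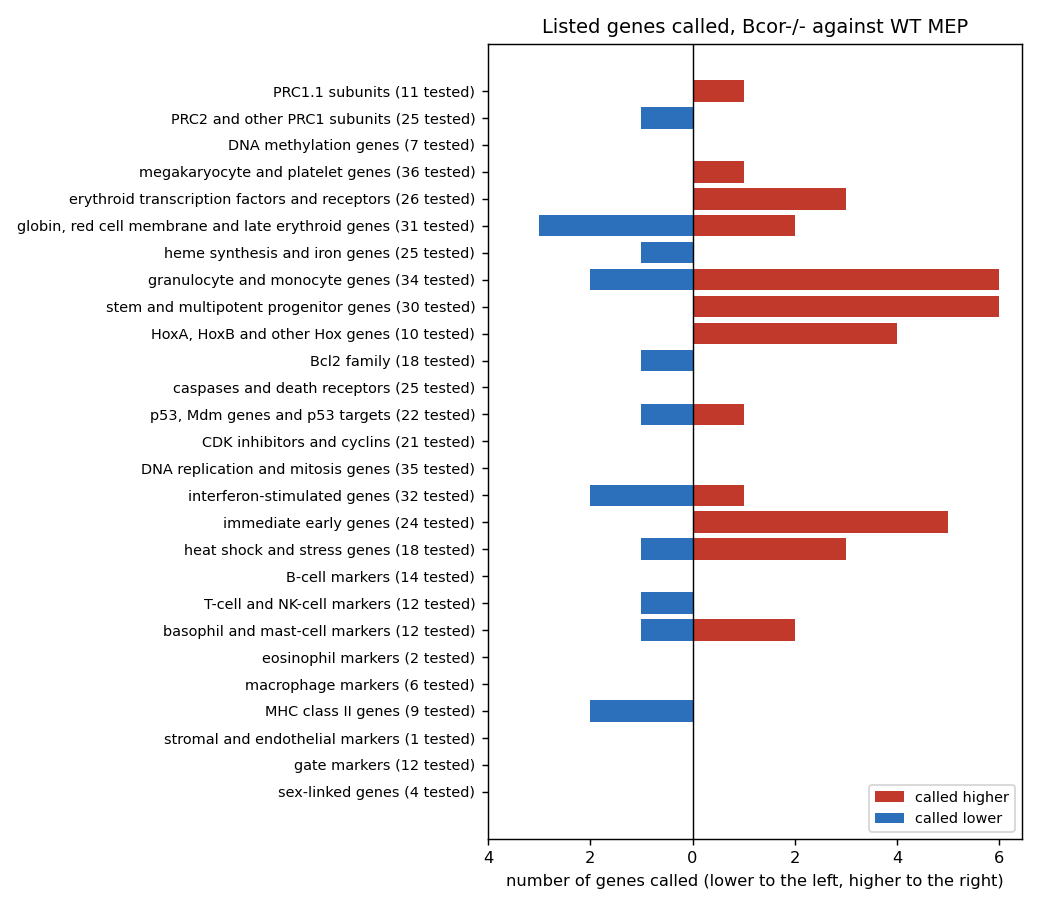
Bars give the number of genes of each list called higher (right, red) or lower (left, blue) in Bcor-/- against WT MEP, with the number tested in brackets. The granulocyte list has 6 called higher and 2 lower of 34, and the replication and mitosis list none of 35; a gene may be on more than 1 list.

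The other MEP genotypes share the WT libraries, so their values are only set side by side. Hoxa10 was at 1.28, 0.304 and 0.234 FPKM in Dnmt3a-/- MEP and at 2.33 and 3.66 FPKM in Bcor-/-Dnmt3a-/- MEP. Ephx2 was at 12.1, 15.0 and 11.9 FPKM in Dnmt3a-/- and at 1.42 and 0.91 FPKM in Bcor-/-Dnmt3a-/- MEP. Asns was at 159.1, 202.9 and 194.7 FPKM in Dnmt3a-/- and at 28.3 and 63.4 FPKM in Bcor-/-Dnmt3a-/- MEP. In all 3 genes the Dnmt3a-/- libraries did not reach the range of the Bcor-/- libraries. Other genes called higher were also above WT in Dnmt3a-/- MEP. Hspa1b was at 1.16, 3.15 and 1.20 FPKM in Dnmt3a-/- MEP, above every WT library. Its Bcor-/-Dnmt3a-/- values were 0.135 and 0.708 FPKM. Klf2 was at 49.99, 24.1 and 12.7 FPKM in Dnmt3a-/- and at 26.9 and 138.7 FPKM in Bcor-/-Dnmt3a-/- MEP, all above the WT range. Fos was at 735.7, 424.3 and 361.0 FPKM in Dnmt3a-/- MEP, again above every WT library, with Bcor-/-Dnmt3a-/- values of 173.0 and 611.2 FPKM.

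The effect of Bcor loss was then set against that in LSK cells from the same mice, as the difference between the MEP and the LSK library of each mouse label. This difference passed an adjusted p of 0.05 for 454 of 10312 genes (4.4%), 149 of them with the more positive effect in MEP and 305 with the more negative effect. Of all genes 2943 had an unadjusted p under 0.05. The count of 454 rests on single libraries: it was 20 without WT replicate 1, 0 without Bcor-/- replicate 1 (2217 at an unadjusted p under 0.05), 2 without Bcor-/- replicate 2, 257 without WT replicate 2 and 741 without WT replicate 3. It was 0 without the level filter (3605 at an unadjusted p under 0.05), 23 with a pseudocount of 0.1 and 67 by limma without the trend.

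Of the 402 genes called in MEP and tested here 72 passed. Of the 86 named genes 22 passed, and their difference kept its sign with any mouse label left out. The 402 genes, and most of the named genes, were chosen for their MEP effect, which is part of this difference. That choice favoured their passing. Hoxa10 was at 6.52, 6.70 and 10.4 FPKM in WT LSK and at 7.23 and 6.49 FPKM in Bcor-/- LSK. The groups overlapped in LSK, and the MEP level of Bcor-/- Hoxa10 lay within the LSK range (difference of effects 2.05 ± 0.27, adjusted p = 0.0273). Hoxa9 was at 24.6, 27.7 and 34.4 FPKM in WT LSK and at 22.9 and 22.4 FPKM in Bcor-/- LSK (1.79 ± 0.26, adjusted p = 0.0298). Prdm16 was at 3.29 to 4.12 FPKM in WT LSK and at 3.17 and 2.65 FPKM in Bcor-/- LSK (1.41 ± 0.18, adjusted p = 0.0251).

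Asns was far lower in LSK, at 8.83 to 9.52 FPKM in WT and 11.95 and 16.2 FPKM in Bcor-/- cells, and was not lower there (difference -2.38 ± 0.36, adjusted p = 0.0325). Acp5 was at 4.52 to 6.91 FPKM in WT LSK and at 13.3 and 11.2 FPKM in Bcor-/- LSK, the opposite direction to MEP (-3.0 ± 0.28, adjusted p = 0.0204). Cebpa was at 12.4 to 19.8 FPKM in WT LSK and at 44.1 and 52.7 FPKM in Bcor-/- LSK, and its difference of effects did not pass (0.24 ± 0.54, adjusted p = 0.802). Neither did that of Elane (-0.92 ± 2.45, adjusted p = 0.837) or Mpo (-0.49 ± 2.04, adjusted p = 0.897), whose errors are wide.

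**Figure D5:**
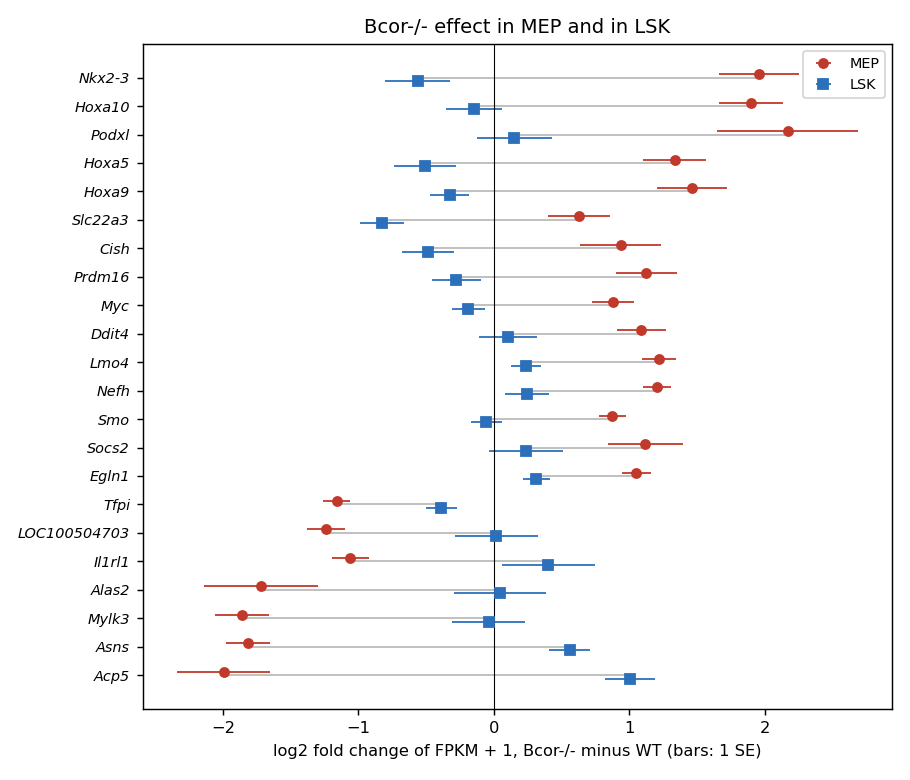
For each of the 22 named genes whose effect differed, the red circle is the log2 fold change of Bcor-/- minus WT in MEP and the blue square that in LSK, each with its SE. Nkx2-3 is at 1.96 in MEP and -0.56 in LSK, and Acp5 at -1.997 and 1.003; the genes were selected for a difference, so the gap between the markers is no separate result.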

How the data were processed

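RNA of sorted MEP and LSK cells was sequenced by the submitters, who deposited 1 table per cell type with 1 FPKM value per gene and library, made by the authors with STAR 2.5.1b, SAMtools 1.9 and Cufflinks 2.2.1 on build mm9, per the submitters' processing notes. FPKM carry no read counts, so the depth of each library is unknown. The FPKM of the 5 libraries compared summed to 424660 to 476070 over all genes. An exact 0 can be a failed estimate. All columns were mapped to samples (0 left unused).

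Here log2(FPKM + 1) of the 5 libraries was tested with limma 3.58.1 (R 4.3.3) with trend, for genes whose mean FPKM reached 1, and p-values were Benjamini-Hochberg adjusted over all genes tested. Fold changes on this scale understate the change of low genes. The call rule (unadjusted p under 0.05, fold above 1.5) takes the study's thresholds, whose test is not named there. All tests are two-sided. An exact permutation of 2 against 3 libraries cannot go below p = 0.1. Errors are SE of the log2 fold change. The MEP and LSK difference was tested on MEP minus LSK per mouse label.

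Named genes were the 12 largest called changes per direction without overlap of groups (small RNAs left out), the 8 smallest p per direction with a mean FPKM of 10 or more, list members called, Bcor, Dnmt3a and PRC1.1 genes, plus defining list members not called. Some list members are counted but their values are not reported here. The members and lists were chosen with earlier results of these data known. Promoter windows matched 8511 of 10505 tested genes (81%) but 78.1% and 79.5% of the genes called higher and lower, under the 80% needed, so no set comparison was made. The scripts were tested on simulated data. Alternatives were another pseudocount, other filters, other scalings, more MEP libraries, no trend, a replicate block and leaving out each library. Figures were drawn with matplotlib 3.10.9.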

Additional observations from a re-analysis of the deposited data

Results flagged for a closer look

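The effect of Bcor loss differed between MEP and LSK cells of the same mice at an adjusted limma p under 0.05 for 454 genes, a count that rests on single libraries as given above. Among the named genes the difference of the log2 fold changes (MEP minus LSK) was 2.52 for Nkx2-3, 2.05 for Hoxa10, 2.02 for Podxl, 1.84 for Hoxa5, 1.79 for Hoxa9, 1.46 for Slc22a3, 1.42 for Cish, 1.41 for Prdm16, 1.07 for Myc, 0.99 for Ddit4, 0.99 for Lmo4, 0.96 for Nefh, 0.93 for Smo, 0.88 for Socs2 and 0.74 for Egln1. On the other side it was -0.77 for Tfpi, -1.26 for LOC100504703, -1.46 for Il1rl1, -1.76 for Alas2, -1.82 for Mylk3, -2.38 for Asns and -3.0 for Acp5. The adjusted p of these 22 genes ran from 0.0204 to 0.047.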

How the results depend on the processing

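Each choice was changed alone. The 458 genes called became 232 at a mean of at least 5 FPKM (107 higher, 125 lower), 302 with all 10 MEP libraries in the fit (137 higher), 144 at a fold above 2 (71 higher, 73 lower) and 38 with the adjusted p (14 higher, 24 lower). Leaving out a library gave 393 to 674 calls, 127 to 378 of them higher and 196 to 296 lower. The number with an adjusted p under 0.05 was 3 without a filter, 63 after quantile normalization, 12 with all 10 MEP libraries, 146 with 8, and 1 to 71 with a library left out. Genes whose effect differed between MEP and LSK numbered 0 without a filter, 23 with a pseudocount of 0.1, 802 at a mean of at least 5 FPKM, 277 after quantile normalization, 690 after rescaling to equal totals, 67 without the trend and 0 to 741 with a mouse left out. The causes were not tested.

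Replicate numbers name different mice in the groups, and same-numbered libraries did not deviate together (r = -0.067 and -0.071), so they do not pair. With a replicate block, which uses WT replicates 1 and 2 against the Bcor-/- libraries, 777 genes were called (448 higher) and 120 had an adjusted p under 0.05, and 533 differed between MEP and LSK.

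Of the 86 genes named as called, as smallest p or as Bcor, Dnmt3a or PRC1.1 genes, uncalled PRC1.1 genes near 0 changed sign. Uncalled list genes also did with a library left out: Itga2b (-0.11 to 0.98), Lcn2 (-1.10 to 0.28), Ltf, Gata1, Epor, Egr1, Nr4a1, Atf3 and Pbx2. The log2 fold change was -0.16 for Pcgf1 and -0.014 for Usp7 with the replicate block and 0.016 for Skp1a after quantile normalization. With a library left out it ran from -0.026 to 0.20 for Bcl6, from -0.16 to 0.30 for Pcgf1, from -0.26 to 0.010 for Ring1, from -0.045 to 0.18 for Rnf2 (-0.0017 without Bcor-/- replicate 2) and from -0.014 to 0.054 for Usp7. Of the 86 named genes 20 lost their call with all 10 MEP libraries in the fit, and 13, 15 and 10 without Bcor-/- replicate 1, Bcor-/- replicate 2 and WT replicate 1. Read depth is unknown, which leaves the counting error of low genes such as Prdm16 and Nkx2-3 unmeasured.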

Other observations

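Lipid synthesis genes were looked at as a list after the data had been seen, because Srebf1 and Scd2 stood among the smallest p-values, so its count is no independent evidence. Of 34 tested sterol and fatty acid genes 10 were called higher and none lower, beside 2.13% of all genes called higher, with a median log2 fold change of 0.31 against -0.0061 over all genes. Srebf2, the factor of sterol synthesis, was at 32.3, 26.3 and 34.9 FPKM in WT and at 50.3 and 44.8 FPKM in Bcor-/- MEP (adjusted p = 0.142, limma). Scd1, a desaturase like Scd2, was at 12.8, 16.1 and 9.53 FPKM in WT and at 33.7 and 21.3 FPKM in Bcor-/- MEP (adjusted p = 0.18). Fdps, which makes farnesyl diphosphate, was at 25.8, 29.1 and 28.5 FPKM in WT and at 54.8 and 42.5 FPKM in Bcor-/- MEP (adjusted p = 0.0731). The count of members called was 5 without WT replicate 2 and 6 without Bcor-/- replicate 1.

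A list of NF-kB feedback and response genes, also chosen after the data had been seen, had 7 of 24 members called lower and none higher, beside 2.23% of all genes called lower. Of the 7, 2 had a Bcor-/- mean under 1 FPKM and were tested only through their WT level. Cd69, an activation marker, was at 48.3, 21.3 and 44.8 FPKM in WT and at 12.6 and 11.8 FPKM in Bcor-/- MEP (log2 fold change -1.49, adjusted p = 0.135), and Tnfaip3, an inhibitor of NF-kB signalling, at 117.6, 52.6 and 62.4 FPKM in WT and at 22.4 and 54.4 FPKM in Bcor-/- MEP, which overlap. The count called lower was 1 without WT replicate 1, 1 without Bcor-/- replicate 1, 4 without WT replicate 3, 10 without WT replicate 2, 1 with all 10 MEP libraries in the fit, 2 at a mean of at least 5 FPKM and 2 without a filter. Asns was the 1 member called of 19 tested amino acid synthesis and ATF4 target genes (5.26%, against 4.36% of all genes), and without Bcor-/- replicate 2 it was 2. The amino acid list and the HIF-response list were also chosen after the data had been seen. They hold Asns and Egln1, already named by small p, so their counts are no independent evidence. Of 19 HIF-response genes 3 were called higher (Egln1, Egln3 and Vegfa) and 2 lower (Hif3a and Pdk1), beside 4.36% of all genes called. It was 1 higher and 2 lower without Bcor-/- replicate 1 and 2 higher and 1 lower without WT replicate 2.

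Mir703 was listed at 0 in the 3 WT libraries and at 292.6 and 124.7 FPKM in Bcor-/- MEP, but also at 338.1 FPKM in 1 WT LSK library and at 0 in both Bcor-/- LSK libraries. An FPKM of a gene this short can rest on few reads.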
